A study of Mus musculus with 6 samples.

Results

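Heat shock proteins and chaperonins form the protein folding machinery of the cell, and their genes were followed here through a screen for binding sites of Bcl6, a zinc finger transcriptional repressor. The genes were chosen by symbol from the authors' list of genes next to Bcl6 peaks: those starting with Hsp (except the proteoglycan gene Hspg2) or Dnaj, and the CCT subunits Cct2, Cct3, Cct4, Cct5, Cct6a, Cct6b, Cct7, Cct8 and Tcp1. This gave 32 genes of the 4540 in the list. They held 42 of the 3878 peaks. RefSeq annotates 83 protein-coding mouse genes that match these symbols, so 51 of them had no listed peak.

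Chaperones of the Hsp70 and Hsp90 families bind unfolded or immature proteins and release them in cycles driven by ATP. J-domain proteins (Dnaj) deliver substrates to Hsp70 and stimulate its ATPase, small heat shock proteins hold unfolding proteins without ATP, and the ring-shaped chaperonins (Hsp60 in mitochondria, CCT in the cytosol) enclose their substrates. Heat shock factors switch on many of these genes under stress by binding heat shock elements. Bcl6 recognises a motif that also joins TTC and GAA, at another spacing, and in the developing cortex it is known to promote neurogenesis.

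The cells were cortical progenitors grown from A2 lox.Cre Bcl6 mouse embryonic stem cells, which carry a tetracycline-inducible Bcl6 transgene. All 6 libraries came from cells at differentiation day 12 with Bcl6 induced for 24 h by 1 µg/ml doxycycline, after cyclopamine at 400 ng/ml from day 2. Bcl6 was immunoprecipitated for 3 libraries and 3 were made from input DNA. No group without induction was analysed here, so transgenic and endogenous Bcl6 cannot be told apart. The stem cells had been propagated on mouse embryonic fibroblasts, and peaks do not measure expression, so the cell type was not checked against its markers. The titles number the ChIP and input libraries as experiments 1 to 3, which matches each ChIP to an input, but the labels do not say whether experiments were separate cultures or whether the line is 1 clone.

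The authors pooled each group before calling peaks, leaving 11718276 ChIP tags and 5048582 input tags at 1 tag per position. Each value below is therefore the authors' own for 1 pooled data set, with no replicate error and no test. The tags left were 20.6% of the 56836596 ChIP tags and 39.4% of the 12808138 input tags. Fold enrichment is ChIP over the local input background, the score is −10 log10 of the p-value given by the peak caller, and distances run from the peak centre to the transcription start site (TSS) in the authors' list. Intervals are exact 95% binomial intervals that cover counting only.

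Of the 83 annotated genes, 32 were listed with a peak (38.6%, interval 28.1 to 49.9%), against 20.1% of all 21887 protein-coding genes. A peak centred within 1 kb of the TSS, here a promoter peak, was listed for 21 of the 83 genes (25.3%, interval 16.4 to 36.04%), against 10.8%. A peak over 2 kb wide was listed for 15 of the 83 (18.1%), against 5.13%, and 8 of the 32 genes had 2 or more peaks, against 20.5%. Assigning each peak only to its nearest TSS left 23 genes (14.8% of all), and leaving out peaks over 2 kb wide left 21 (16.6% of all), as did keeping only peaks at or above the median score (10.8% of all).

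The counts by family are to be read beside the backgrounds of 20.1% of genes with any peak and 10.8% with a promoter peak. All 3 genes with an Hsp90 symbol had a promoter peak, and so did Hspd1 and Hspe1, which encode mitochondrial Hsp60 and its partner Hsp10 and share a single peak. Trap1, the mitochondrial Hsp90, is outside these symbols and had no listed peak; it is named after its value was seen. Of 14 Hsp70 and Hsp110 genes 5 had a peak, 3 of them at the promoter. Small heat shock protein genes had a peak in 4 of 7 cases, and 1 of the 7, Hspb1, had it at the promoter. The 45 Dnaj genes gave 15 with a peak and 10 with a promoter peak, and the 9 CCT genes gave 2, of which 1 had a promoter peak. Both CCT counts and the promoter count of the small heat shock protein genes were near the backgrounds. The families are small, and no difference between them was tested.

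**Figure D1:**
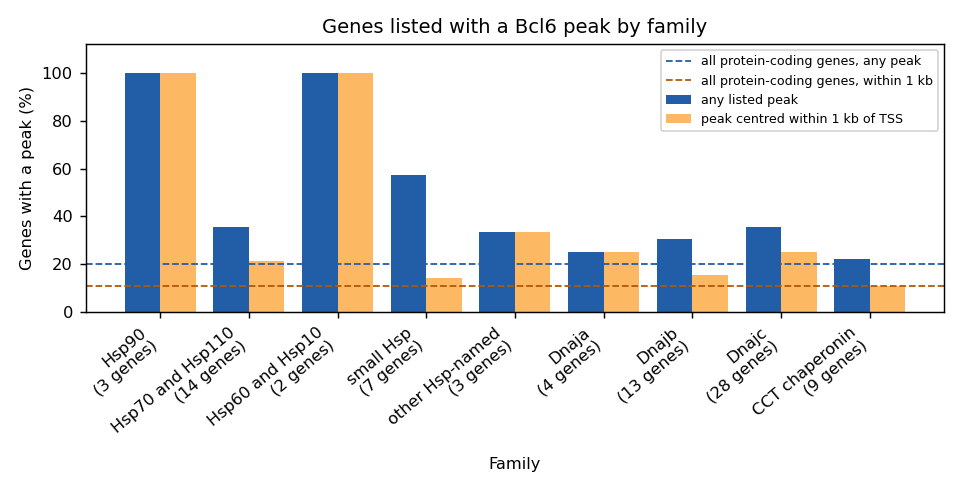
Percentage of the annotated genes of each family (number of genes in brackets) that were listed with any Bcl6 peak (blue bars) or with a peak centred within 1 kb of the TSS (orange bars), with dashed lines for all protein-coding genes (20.1% and 10.8%). The Hsp90 genes (3 of 3) and Hsp60 and Hsp10 genes (2 of 2) reach the top of the scale, while 2 of 9 CCT genes had a peak.

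The promoter windows of 6 genes are shown because the motif results below turn on them: the shared heat shock promoter of Hspe1 and Hspd1, the small heat shock gene Hspb1, the peak of highest fold in the set at Dnajb14, the endoplasmic reticulum (ER) chaperones Hspa5 and Hsp90b1, and Dnajc27, the member whose window held the Bcl6 core motif but which had no peak. Each window runs from 250 bases before the RefSeq start to 50 after it on the strand of the gene (GRCm38.p6, the same build as mm10), and the coordinates are chr1:55087898-55088197 (plus) for Hspe1, chr5:135887669-135887968 (plus) for Hspb1, chr3:137867425-137867724 (plus) for Dnajb14, chr2:34771840-34772139 (plus) for Hspa5, chr10:86705395-86705694 (minus) for Hsp90b1 and chr12:4082324-4082623 (plus) for Dnajc27. Capitals mark heat shock element pairs in Hspe1 and Hspb1, the ER stress element in Hspa5 and Hsp90b1, and the Bcl6 core with an overlapping heat shock pair in Dnajc27. Nothing is marked in Dnajb14, which held none of these motifs.
Hspe1: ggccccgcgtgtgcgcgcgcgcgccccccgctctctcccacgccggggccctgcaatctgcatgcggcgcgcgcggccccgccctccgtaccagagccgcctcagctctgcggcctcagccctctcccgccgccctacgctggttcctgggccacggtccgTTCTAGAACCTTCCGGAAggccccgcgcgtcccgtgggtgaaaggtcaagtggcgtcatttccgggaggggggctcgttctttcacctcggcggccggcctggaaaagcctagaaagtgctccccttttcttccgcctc
Hspb1: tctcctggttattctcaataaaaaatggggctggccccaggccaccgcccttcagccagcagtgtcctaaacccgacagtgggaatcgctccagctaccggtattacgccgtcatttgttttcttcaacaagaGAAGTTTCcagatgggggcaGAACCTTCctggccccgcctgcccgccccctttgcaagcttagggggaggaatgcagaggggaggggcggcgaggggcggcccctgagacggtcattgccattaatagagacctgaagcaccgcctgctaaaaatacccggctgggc
Dnajb14: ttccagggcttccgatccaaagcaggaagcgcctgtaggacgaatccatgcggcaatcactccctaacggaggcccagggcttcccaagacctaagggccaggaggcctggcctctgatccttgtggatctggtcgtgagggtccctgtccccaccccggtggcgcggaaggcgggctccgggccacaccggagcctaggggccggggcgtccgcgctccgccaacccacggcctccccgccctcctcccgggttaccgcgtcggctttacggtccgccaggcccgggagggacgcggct
Hspa5: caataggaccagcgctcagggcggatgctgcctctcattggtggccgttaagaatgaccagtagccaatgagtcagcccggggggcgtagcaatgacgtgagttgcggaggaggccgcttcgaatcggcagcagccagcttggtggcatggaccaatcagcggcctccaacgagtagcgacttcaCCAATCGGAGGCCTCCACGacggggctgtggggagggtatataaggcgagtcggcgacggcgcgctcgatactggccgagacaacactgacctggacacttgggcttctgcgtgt
Hsp90b1: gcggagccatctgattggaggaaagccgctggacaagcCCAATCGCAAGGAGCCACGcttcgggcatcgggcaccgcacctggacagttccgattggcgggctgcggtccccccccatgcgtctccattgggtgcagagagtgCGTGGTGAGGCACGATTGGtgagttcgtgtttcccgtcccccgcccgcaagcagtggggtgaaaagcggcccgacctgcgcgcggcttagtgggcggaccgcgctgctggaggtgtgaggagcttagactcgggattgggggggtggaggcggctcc
Dnajc27: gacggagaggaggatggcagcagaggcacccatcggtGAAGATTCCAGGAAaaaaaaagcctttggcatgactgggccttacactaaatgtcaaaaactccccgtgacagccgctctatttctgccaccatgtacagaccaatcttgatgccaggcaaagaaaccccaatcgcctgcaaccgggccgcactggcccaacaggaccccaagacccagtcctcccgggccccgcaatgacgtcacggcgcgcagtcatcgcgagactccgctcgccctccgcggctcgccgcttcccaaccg

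The Bcl6 core was searched as TTCCTNGAA and a looser palindrome as TTCNNNGAA, both on both strands. Neither was found in the 19 windows of the 16 members that had a promoter peak and an entry in the table. Of these windows, 17 lay wholly inside the peak and 8 held its summit, counting the summit shared by Hspd1 and Hspe1 for each gene. Among all 87 windows of annotated members, the core was found in 1, that of Dnajc27, and the looser palindrome in 4, those of Dnajc27, Cct5, Dnajc7 and Dnajc13, none of which had a listed peak. In all 32851 windows of the table, 1.59% held the core and 8.30% the looser palindrome. In the 2533 windows of all genes with a promoter peak, the shares were 0.987% and 6.47%. At such shares 19 windows would hold few matches or none. A missing match says only that these letters are not in these bases, and the peaks reached beyond the windows.

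Matches to heat shock elements were found in member windows with and without a promoter peak. A pair of units was searched as GAANNTTC or TTCNNGAA, and a longer form as such a pair followed, after 2 bases, by 1 more unit in alternation, so that each longer match contains pairs. Upstream of Hspe1 the marked run of 18 bases, from 89 to 72 bases before the start, held 2 overlapping matches of the longer form, and the summit of the shared Hspd1 and Hspe1 peak lay 3 bases upstream of the RefSeq start of Hspe1. The same bases lie in a window of Hspd1, which reads them from the other strand. The Hspb1 window held pairs at 117 to 110 and at 97 to 90 bases before the start, with the summit 39 bases upstream of it. The longer form was present in 6 of the 87 member windows, belonging to Hspd1, Hspe1, Hsph1 and Dnajb6, and in 0.603% of all windows. These 6 are not separate stretches of DNA. The windows of Hsph1 overlap each other, as do those of Dnajb6, and Hspd1 and Hspe1 share their match. Hsph1, which encodes an Hsp110, and Dnajb6 had no listed peak. Pairs were present in 21 of the 87 windows and in 15.1% of all. Of the 19 windows of members with a promoter peak 4 held a pair, the others being those of Hspd1 and of Dnajb4, the latter in a second window outside the peak. Without a promoter peak 17 of 68 member windows held one, a share not below the 21.1% with such a peak. Over windows of all genes with a promoter peak, 10.3% held a pair and 0.829% the longer form. The search was of letters and did not measure a factor.

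The ER stress element, searched on both strands as CCAAT and CCACG separated by 9 bases, is a motif through which unfolded protein in the ER is known to activate chaperone genes. This motif was chosen after the data were seen. It was present in 3 member windows, those of Hspa5, Hsp90b1 and Dnajc3, and in 0.119% of all windows. In windows of all genes with a promoter peak the share was 0.395%. Of the 37 genes with the element in any window, 10 had a promoter peak. Of the 3 member genes, Hspa5 and Hsp90b1 had a promoter peak, while the only listed peak of Dnajc3 was centred 39.7 kb away. The peaks of Hspa5 and Hsp90b1 covered the element, with summits 201 bases downstream and 474 bases upstream of the RefSeq start, outside the windows. Median GC content was 66.7% over the 19 windows of members with a promoter peak and 62.0% over the 68 member windows without one. It was 64.3% over windows of all genes with such a peak and 52.7% over all windows.

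Hsp90ab1, the constitutive cytosolic Hsp90, had the most tags of any member, 723 over 10.1 kb in 2 peaks, 1 over the TSS and 1 over the end of the gene. The promoter peak, on chromosome 17 from 45571052 to 45574481, held 219 tags at 26.4-fold with a score of 236 and a summit 208 bp downstream of the TSS. The downstream peak, from 45563649 to 45570293, held 504 tags at 33.4-fold. Its score of 732 ranked 12th of the 3878 peaks, and it reached from 2978 to 9622 bp past the TSS, overlapping the later part of Hsp90ab1 and the neighbouring gene Slc35b2, whose TSS was nearer.

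Hsp90aa1, the stress-inducible cytosolic form, had the same order of peaks at lower enrichment. A peak of 15.0-fold with 107 tags was centred 258 bp downstream of the TSS on chromosome 12 from 110695268 to 110697007. Further peaks of 16.0-fold (76 tags) at 5978 bp and 14.2-fold (96 tags) at 8016 bp were centred 619 and 2657 bp past the annotated end of the gene. The farther peak was nearer to the TSS of 1700001K19Rik, at 5760 bp. All 3 folds were below the median of 21.3-fold over all peaks. Hsp90b1, the ER form, had 1 peak of 20.7-fold with 84 tags over its TSS, on chromosome 10 from 86704287 to 86706505, which was also listed for BC030307 at 415 bp.

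Among Hsp70 genes, Hspa8, which encodes the constitutive Hsc70, again had a promoter peak and a peak past the gene end. The first, on chromosome 9 from 40800403 to 40802298, held 91 tags at 26.6-fold with a score of 140, and its summit lay 613 bp downstream of the TSS. The second, of 2950 bp, held 165 tags at 16.0-fold with a score of 150 and was centred 2403 bp past the gene end, overlapping no RefSeq gene. Higher fold and higher tag count thus fell on different peaks of the same gene.

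The ER chaperone gene Hspa5, which encodes BiP, had a peak of 11.4-fold with 90 tags over 2226 bp, the lowest fold of the 42 peaks. Hspa4, an Hsp110 family member, had a promoter peak of 17.0-fold with 82 tags and a summit 860 bp downstream of the TSS. The endothelial Hsp70 relative Hspa12b was listed for a narrow peak of 26.6-fold with 29 tags, 30.9 kb upstream and nearer to the TSS of Siglec1.

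Hspa1b, a stress-inducible Hsp70, had no promoter peak. Its listed peak of 33.4-fold, 350 tags and 5314 bp, with a score of 438 that ranked 48th, was centred 8378 bp downstream of the TSS and 5569 bp past the gene end, over the long noncoding RNA gene 1110038B12Rik and the small nucleolar RNA gene Snord52. The neighbouring copy Hspa1a is nearly identical to Hspa1b, and the sources used here do not give how reads matching both were treated, so the absence of a peak over either copy is uncertain. Hspa1a, Hspa1l, Hspa2, Hspa4l, Hspa9, Hspa12a, Hspa13, Hspa14 and Hsph1 had no listed peak.

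The mitochondrial chaperonin pair shared a peak of 19.8-fold with 108 tags on chromosome 1 from 55086808 to 55089002. Its centre was 119 bp downstream of the TSS of Hspd1 and 227 bp upstream of that of Hspe1. In the cytosolic chaperonin CCT, whose substrates include actin and tubulin, Cct7 had 3 peaks, of 13.7-fold at 161 bp, 11.5-fold at 18.7 kb and 19.7-fold at 32.8 kb. The first was shared with Pradc1, the others overlapped Fbxo41, and the middle one was centred 1737 bp past the end of Cct7. Cct2 had 1 peak of 18.3-fold, 2133 bp past its end and nearer to Lrrc10. Cct3, Cct4, Cct5, Cct6a, Cct6b, Cct8 and Tcp1 had no listed peak. All 4 CCT peaks were below the median fold of all peaks.

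**Figure D2:**
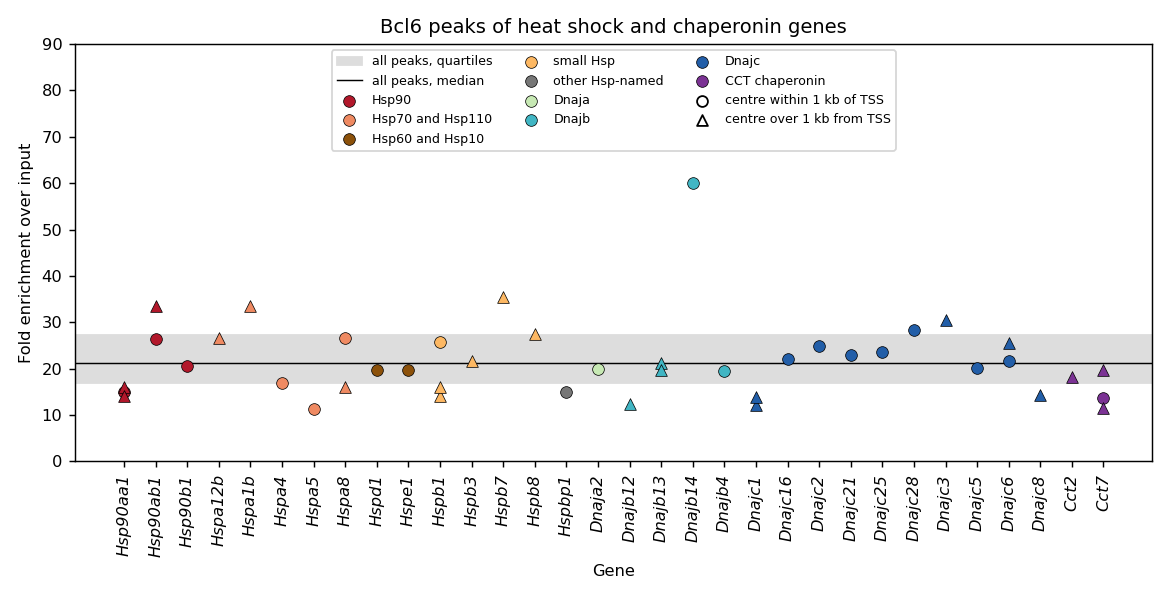
Fold enrichment over input (vertical axis) of each listed Bcl6 peak by gene (horizontal axis), coloured by family, as circles for centres within 1 kb of the TSS and triangles for others, with the median (line) and quartiles (band) of all peaks. The peak of Dnajb14 stands at 60.1-fold, and the others lie between 11.4- and 35.5-fold.

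The small heat shock protein genes mostly had peaks away from their TSS. Hspb1, which encodes Hsp27 (Hsp25 in mouse), had a promoter peak of 25.7-fold with 26 tags over 762 bp, near the lower end in tags. Its other peaks, of 14.1-fold at 15.8 kb and 16.0-fold at 29.3 kb, lay towards Ywhag, and the farther one overlapped that gene. Hspb7 had a narrow peak of 35.5-fold with 31 tags, 5345 bp downstream of its TSS and 814 bp past its end, the second highest fold of the 42. Hspb8 had 1 of 27.6-fold with 21 tags, the fewest of the set, at 22.0 kb. Hspb3 had a peak of another kind, 61.6 kb upstream, with 211 tags over 2903 bp at 21.6-fold, a score of 303 and no RefSeq gene under it. Fold and tag count therefore ordered these genes differently. The Hsp70 exchange factor gene Hspbp1 had a promoter peak of 15.1-fold with 51 tags.

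Among J-domain genes, Dnajb14, which encodes an ER membrane cochaperone, carried the strongest promoter peak of the set by fold and by score. It lay on chromosome 3 from 137866834 to 137868804 and held 210 tags at 60.1-fold with a score of 512, ranking 82nd by fold and 33rd by score among all peaks. Its density of 107 tags per kb was above that of every other member peak, of which the next was 75.8 at Hsp90ab1. The peak also overlapped the histone gene H2az1. The empirical false discovery rate (FDR) of this peak was 6.06% and that of the downstream Hsp90ab1 peak 8.33%, so a limit of 5% would remove both, although all 38 peaks above that limit were among the 50 with the highest scores. Its relative Dnajb12 was listed only for a peak of 12.4-fold at 71.0 kb, which covered Ddit4 and was centred 1236 bp from the TSS of that gene.

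Of the Dnajc genes, 7 had a promoter peak, between 20.1- and 28.4-fold and with 27 to 64 tags. They were Dnajc28 (28.4-fold), Dnajc2, whose product works at the ribosome (24.9-fold), Dnajc25 (23.6-fold), Dnajc21, a ribosome biogenesis gene (22.9-fold), Dnajc16 (22.2-fold), Dnajc6, which encodes the clathrin-uncoating auxilin (21.7-fold), and Dnajc5, which encodes the synaptic vesicle cysteine string protein (20.1-fold). These 7 peaks were narrow, from 765 to 1563 bp. Dnajc6 had a second peak of 25.6-fold with 28 tags, 53.7 kb upstream of that TSS, over the annotated start of the gene. Promoter peaks of 19.95-fold and 19.5-fold were listed for Dnaja2 and Dnajb4, the latter shared with Fubp1.

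The remaining Dnajc and Dnajb peaks were centred over 1 kb from the listed TSS. Dnajc3, which encodes an ER cochaperone of BiP, had 1 of 30.6-fold inside its gene body at 39.7 kb. Dnajc1 was listed for peaks of 12.3-fold at 328 kb and 13.8-fold at 336 kb, both inside Mllt10. Dnajb13, a sperm flagellum gene, was listed for peaks of 21.3-fold at 13.0 kb and 19.8-fold at 18.7 kb, both nearer to the TSS of Ucp2. The peak of Dnajc8, of 14.4-fold at 1941 bp upstream, was centred 50 bp from the TSS of Atpif1.

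By distance, 20 of the 42 peaks were centred within 1 kb of a member TSS (47.6%, interval 32.004 to 63.6%), against 56.0% of all peaks within 1 kb of any listed TSS. Measured to any listed TSS, as for all peaks, the member share was 21 of 42. The order of the shares turned with the assignment: with each peak given only to its nearest TSS, 18 of 28 member peaks were within 1 kb (64.3%, against 56.0%), and among peaks within 5 kb 20 of 21 were (95.2%, against 83.7%). A further 16 lay 5 to 50 kb away and 5 over 50 kb. Of the 22 peaks beyond 1 kb, 12 were nearer to the TSS of another listed gene, as at Dnajc1, Dnajb12, Dnajb13 and Dnajc8. For these the listing gives a neighbour and no more. At the promoters, 6 of the 20 peaks had another listed TSS within 1 kb, those of Hspd1 with Hspe1, Hsp90b1, Dnajb4, Dnajc2, Dnajc25 and Cct7, against 11.3% of all promoter peaks. These shares are not like for like, because members were chosen by gene and a shared peak could enter through either of its genes.

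Peaks just past the end of the gene recurred. Of the 22 listings over 1 kb from the TSS, 8 were centred up to 5 kb beyond the annotated end of the listed gene (36.4%), against 13.1% of 3258 such listings over all genes. They belonged to Hsp90aa1 (2 peaks), Hsp90ab1, Hspa8, Hspb7, Dnajb13, Cct2 and Cct7. The farther Hsp90aa1 peak and those of Hsp90ab1, Dnajb13 and Cct2 were nearer to the TSS of another listed gene. Among genes up to 20 kb long the values were 8 of 18 (44.4%) and 19.6%. This comparison was chosen after the positions were seen, and listings that share a gene are not independent. Of the 22, 2 were centred inside the annotated gene, those of Dnajc3 and Dnajc6 (9.09%), against 25.7% over all genes. The Dnajc6 peak lay over the annotated start of its gene. Genes up to 20 kb long gave 18 of the 22 member listings, against 1507 of the 3258. The share inside the gene was not compared among these short genes alone.

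**Figure D3:**
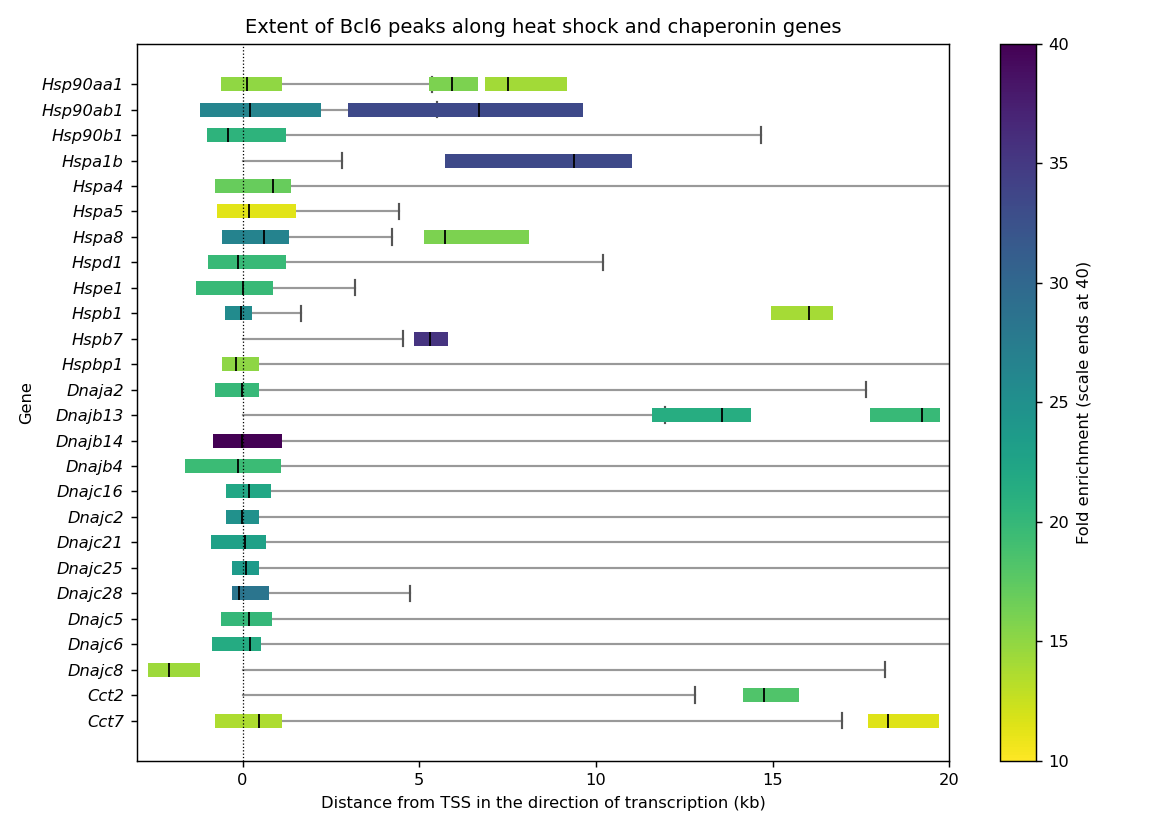
Extent of each listed Bcl6 peak (bars, coloured by fold enrichment, with the colour scale ending at 40) along its gene, as distance from the TSS in kb in the direction of transcription; grey lines are gene bodies, upright grey ends are annotated gene ends and black ticks are summits. Peaks beyond 20 kb are not drawn, and Hsp90aa1, Hsp90ab1 and Hspa8 have a peak at each end of the gene.

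The member peaks were more often wide than all peaks, with a similar median fold. Over 2 kb wide were 16 of the 42 (38.1%, interval 23.6 to 54.4%), against 22.8% of all peaks. At promoters 6 of 20 were (interval 11.9 to 54.3%), against 19.8%. With a limit of 3 kb the shares were 9.52% and 8.28%. With each peak given only to its nearest TSS 9 of 28 were over 2 kb wide (32.1%, against 22.8%), and among peaks within 5 kb 6 of 21 (28.6%, against 23.5%). Median width was 1832 bp against 1405 bp over all peaks, median tag count 73.5 against 58, and median fold enrichment 20.01 against 21.3. The median score was 75.9 against 71.7, and tags per kb were nearly equal, at 40.8 and 39.97. The wide peaks were uneven among the families, with 4 of 6 Hsp90 peaks, 4 of 6 Hsp70 and Hsp110 peaks and 3 of 5 Dnajb peaks, but 2 of 12 Dnajc peaks. All the wide Dnajb and Dnajc peaks were nearer to the TSS of another listed gene. So were the wide Hsp90aa1 peak and the downstream Hsp90ab1 peak. The families hold few peaks, and no difference in width between them was tested.

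**Figure D4:**
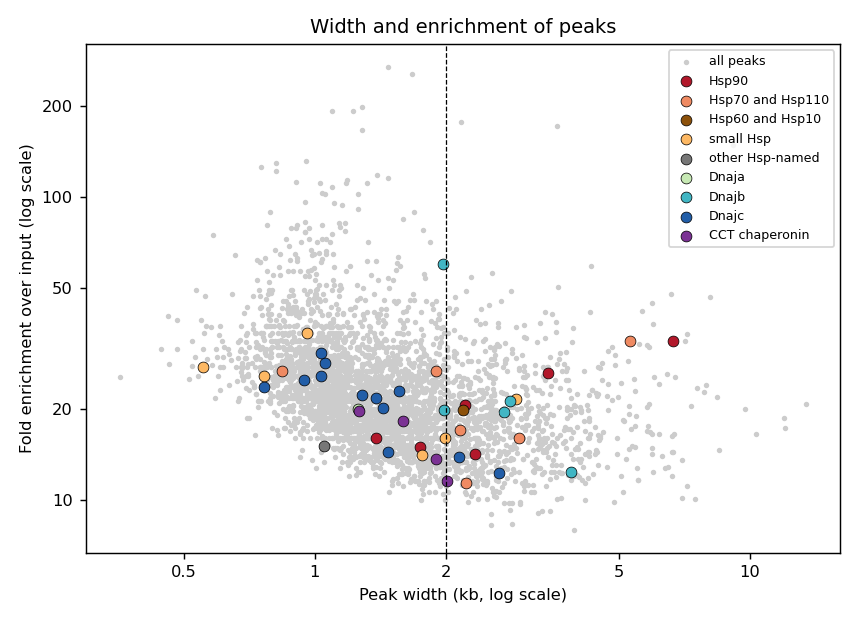
Width (kb) and fold enrichment over input of the member peaks (coloured by family) and of all 3878 peaks (grey), both axes on a log scale, with the 2 kb limit dashed. Of the 42 member peaks 16 lie right of the limit, among them Hsp90ab1 and Hspa1b at 33.4-fold, while Dnajb14 stands highest just left of it.

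Of 59 other genes of the folding machinery, 19 were listed with a peak (32.2%, interval 20.6 to 45.6%), 17 of them with a promoter peak, against the same backgrounds of 20.1% and 10.8%. With only peaks at or above the median score, 9 of the 59 were listed, against 10.8%. Of the heat shock factor genes and their binding partners (Hsf1, Hsf2, Hsf4, Hsf5, Hsbp1 and Hsbp1l1) 0 of 6 were listed (interval 0 to 45.9%), as were 0 of 9 prefoldin and CCT cofactor genes (0 to 33.6%) and 0 of 3 chaperonin-like genes (0 to 70.8%). These intervals include the background of 20.1%. Mitochondrial proteostasis genes had a peak in 4 of 6 cases. The protease subunit gene Afg3l2 led with 65.02-fold at 63 bp upstream of its TSS, followed by Lonp1, a matrix protease gene, at 29.8-fold. ER chaperone genes had one in 4 of 7 cases, with Canx at 23.9-fold. Calr and Pdia3, each at 13.3-fold, and P4hb at 12.9-fold were below the median of 21.3-fold over all peaks.

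Cochaperones of Hsp90 and Hsp70 were listed in 7 of 18 cases and exchange factors in 4 of 10. Grpel1, the exchange factor of mitochondrial Hsp70, had 27.6-fold at 9389 bp. The Hsp90-binding cyclophilin gene Ppid had 25.7-fold, the ubiquitin ligase gene Stub1 23.4-fold, the immunophilin gene Fkbp4 22.3-fold and the phosphatase gene Ppp5c 21.99-fold, each within 1 kb of the TSS.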

How the data were processed

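Binding of Bcl6 was measured by chromatin immunoprecipitation and sequencing in 3 ChIP and 3 input libraries, pooled by the authors. The submitters' processing notes name Bowtie and mm10 (Bowtie version not given in the sources used here). Peaks were called with MACS 1.4.2 at a p-value cutoff of 1e-05, per the file headers, and genes assigned with GREAT 3.0.0, with domains extended by up to 1000000 bp. Tags per peak are raw counts deposited by the authors, at most 1 tag per position. Per the file headers, fold enrichment is the ratio of tags to the local background. The authors deposited a score, −10 log10 p, under a header that a spreadsheet had overwritten; the column was identified by column order and its minimum of 50.03. FDR was deposited in percent.

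Peak numbers in the gene list follow the row order of the peak table. Symbols were matched to a RefSeq table of GRCm38.p6, which matched 98.6% of 5801 listings by current or unique older symbol. Strand came from RefSeq promoter windows for 27 of the 32 members, and for the other 5 from the gene end nearer the implied TSS. Hsp90aa1, Hsp90ab1, Hspa8, Dnajc2 and Dnajc5 had no window. Counts, medians and exact binomial intervals were computed with Python 3.11.15, pandas 2.3.3 and scipy 1.17.1. Motif search and intervals were tested on simulated data. The motif test planted matches in sequences of A and C alone, which cannot hold these motifs. It therefore checked only that planted matches are found. For placement only the arithmetic was checked, with the strand given, so the choice of strand was not tested. Named in full were all Hsp90, Hsp70, Hsp60, Hsp10 and CCT genes with a peak, and of the rest those among the 10 highest folds or scores, with 2 or more peaks or over 50 kb away; others are named where they belong to a group described. The 59 further genes are represented by the 6 heat shock factor genes and the 8 highest folds, and Trap1, Calr, Pdia3 and P4hb are also named. Members and lists were chosen with earlier results of these data known. The ER stress element and the positions past gene ends were added after the data were seen.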

Additional observations from a re-analysis of the deposited data

How the results depend on the processing

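Without peaks over 2 kb wide, 21 of the 83 genes had a peak, against 16.6% of protein-coding genes, and with only peaks at or above the median score 21, against 10.8%. The latter left 9 of the 59 further genes. Assigning each peak to its nearest TSS left 23 genes and put 64.3% of their peaks within 1 kb (56.0% of all peaks). Keeping only peaks within 5 kb, which removes distal peaks by construction, left 22 genes and 95.2% (83.7% of all). An FDR of at most 5% removed the peak of Dnajb14, and with it the gene, and the downstream peak of Hsp90ab1, whose strongest fold became 26.4. Wide peaks made up 59.5% with a limit of 1.5 kb (43.9% of all peaks) and 9.52% with a limit of 3 kb (8.28%). The looser Bcl6 palindrome was in 4 member windows. The ratio of the median fold of members to that of all peaks was 0.94, and 0.841 to 1.02 under the alternatives, including tags per kb. The share of listings past the gene end was 36.4% with a flank of 3 kb (10.4% of all listings) and 50.0% with 10 kb (16.9%). No paired analysis was possible because peaks were called on pooled libraries, although experiment numbers match ChIP to input, and for the same reason no replicate could be left out. Peaks with few tags, such as those of Hspb8 and Hspb1, scored 53.98 and 54.28, near the lowest score of 50.03, so a gene without a listed peak is one without a peak at this depth and cutoff.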
